A study of Mus musculus with 8 samples.

Results

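The 36 genes described here encode parts of the lysosome: 7 lysosomal membrane proteins, 14 acid hydrolases, 3 soluble cofactors and transfer proteins, 2 lysozymes, 3 transcription factors of lysosomal genes and 7 parts of the vacuolar proton pump. Cathepsins were left out. An accessible region was taken as a member when its nearest protein-coding gene in a RefSeq gene table, within 50 kb on mm10, was one of the 36. This gave 147 of the 61196 regions counted, and each of the 36 genes had at least 1. In all, 53906 regions were linked to 15582 protein-coding genes, and nearness does not show which gene a region acts on.

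Open chromatin had been profiled by ATAC-seq, which reads DNA that the Tn5 transposase can reach, in mouse bone marrow progenitor cells. The 4 groups are named GMP-MoP, proNeu2, proNeu1 and cMoP, with 2 libraries each. The name cMoP commonly stands for the common monocyte progenitor, and proNeu1 and proNeu2 for successive neutrophil progenitors; the series title derives GMP-MoP from proNeu1. All 8 libraries share the tissue, the sort of progenitor cells and the tagmentation kit, and the labels name no genotype, strain, age or treatment. No source at hand describes the sort gates. Libraries of a group are called biological replicates, but no label ties them to different mice, and each p-value therefore reflects only how far these libraries spread, part of which may be technical.

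Lysosomes break down proteins, lipids, glycans and nucleic acids in an acid lumen. The V-ATPase pumps protons in at the cost of ATP: its V1 part binds and hydrolyses ATP in the cytosol, and its V0 part conducts protons through the membrane. Tfeb, Tfe3 and Mitf are related factors that bind an E-box, the core of the CLEAR element found at many lysosomal promoters. Monocytes and macrophages are rich in lysosomes, and neutrophil progenitors pack acid hydrolases and lysozyme into granules related to lysosomes.

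The promoters of 7 genes are printed to show this element where members' start sites were open: 4 hold the E-box core CACGTG and 3 do not. Each line gives 250 bases before and 50 after the RefSeq start of GRCm38.p6, the assembly of mm10, from 5′ to 3′ along the gene. Capitals mark matches on either strand to 4 motifs: CACGTG, its longer form TCACGTG, which contains it, the PU.1 core GAGGAA and the C/EBP motif TTGCGCA.
Lamp1 (chr8:13158911-13159210, plus strand): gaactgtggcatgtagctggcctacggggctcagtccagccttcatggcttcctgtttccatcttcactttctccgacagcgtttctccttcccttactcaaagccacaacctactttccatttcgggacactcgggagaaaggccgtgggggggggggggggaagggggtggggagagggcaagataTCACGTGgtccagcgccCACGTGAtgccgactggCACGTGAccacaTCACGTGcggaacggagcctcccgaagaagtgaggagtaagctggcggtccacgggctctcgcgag
Mcoln1 (chr8:3500269-3500568, plus strand): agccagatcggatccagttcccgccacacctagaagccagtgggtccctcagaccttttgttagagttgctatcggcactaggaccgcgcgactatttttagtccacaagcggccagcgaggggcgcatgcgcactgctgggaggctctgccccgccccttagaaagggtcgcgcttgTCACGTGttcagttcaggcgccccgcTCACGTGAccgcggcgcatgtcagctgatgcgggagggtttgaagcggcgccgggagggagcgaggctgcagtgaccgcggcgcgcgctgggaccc
Gaa (chr11:119267713-119268012, plus strand): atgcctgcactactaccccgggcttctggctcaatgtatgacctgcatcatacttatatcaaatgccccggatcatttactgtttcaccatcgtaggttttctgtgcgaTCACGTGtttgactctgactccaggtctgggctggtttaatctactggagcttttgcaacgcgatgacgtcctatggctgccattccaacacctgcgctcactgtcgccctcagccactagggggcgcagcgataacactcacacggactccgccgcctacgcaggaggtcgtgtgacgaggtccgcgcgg
Atp6v0d1 (chr8:105566015-105566314, minus strand): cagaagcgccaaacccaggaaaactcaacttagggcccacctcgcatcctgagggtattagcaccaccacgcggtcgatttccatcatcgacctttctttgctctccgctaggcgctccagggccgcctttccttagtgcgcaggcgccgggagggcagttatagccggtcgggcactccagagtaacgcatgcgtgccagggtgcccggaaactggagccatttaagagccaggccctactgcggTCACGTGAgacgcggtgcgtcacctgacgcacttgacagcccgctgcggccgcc
Grn (chr11:102430257-102430556, plus strand): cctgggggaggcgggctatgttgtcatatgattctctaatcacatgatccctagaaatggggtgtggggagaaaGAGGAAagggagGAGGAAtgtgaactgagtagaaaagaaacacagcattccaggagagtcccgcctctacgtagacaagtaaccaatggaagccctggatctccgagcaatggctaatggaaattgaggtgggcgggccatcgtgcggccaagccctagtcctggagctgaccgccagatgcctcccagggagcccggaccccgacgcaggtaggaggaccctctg
Neu1 (chr17:34931003-34931302, plus strand): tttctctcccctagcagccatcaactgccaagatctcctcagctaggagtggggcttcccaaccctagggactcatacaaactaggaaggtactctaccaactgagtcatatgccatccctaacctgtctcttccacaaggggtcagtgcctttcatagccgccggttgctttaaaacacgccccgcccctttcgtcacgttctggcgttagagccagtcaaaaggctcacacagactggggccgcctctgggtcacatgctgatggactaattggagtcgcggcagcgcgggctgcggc
Lyz2 (chr10:117282223-117282522, minus strand): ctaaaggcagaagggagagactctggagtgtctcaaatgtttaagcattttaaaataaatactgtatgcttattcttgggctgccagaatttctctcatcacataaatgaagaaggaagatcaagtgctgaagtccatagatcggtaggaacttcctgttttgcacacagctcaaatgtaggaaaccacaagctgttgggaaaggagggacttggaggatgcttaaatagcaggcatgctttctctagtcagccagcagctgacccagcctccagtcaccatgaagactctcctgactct
In Lamp1, 4 E-box matches began 61, 45, 28 and 15 bases before the start, and in Mcoln1 2 began 71 and 45 bases before it. Gaa had 1 match 140 bases before its start and Atp6v0d1 had 1 match 3 bases before its start. Capitals in Grn mark 2 PU.1 cores, and the Neu1 and Lyz2 windows held no match to the 4 motifs.

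RefSeq promoters were found for 31 of the 36 genes. CACGTG lay in a promoter of 8 of these 31 genes (25.8%), against 2187 of 27025 genes in the whole table (8.09%). The 8 are Atp6v0d1, Atp6v1a, Gaa, Gla, Glb1, Lamp1, Lgmn and Mcoln1, and TCACGTG lay in all 8. By promoter, the E-box core was in 8 of 40 (20%) against 7.15% of all promoters, and TCACGTG in 20% against 3.77%. GAGGAA lay in 11 of 40 (27.5%, against 28.3%), and TTGCGCA in 0 of 40 (against 2.02%). These are letter matches in a short window and show no binding.

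Totals were 1388525 to 1907810 counts per library, and the members held 0.242 to 0.263% of them. Levels are given as CPM, that is, counts of a library scaled by its total and its TMM factor. Summed over the neutrophil progenitor markers (23 regions), they were 450 and 468 CPM in GMP-MoP, 956 and 972 in proNeu2, 766 and 872 in proNeu1, and 371 and 334 in cMoP. Summed over the monocyte markers (54 regions), they were 626 and 594 CPM in GMP-MoP, 524 and 532 in proNeu2, 490.1 and 529 in proNeu1, and 767 and 706 in cMoP. Of the 22 tested neutrophil progenitor marker regions, 16 were higher and 1 lower in proNeu1 against cMoP, and 4 of 44 monocyte marker regions were higher and 15 lower. Marker sums of other cells ranged over all libraries from 17.9 to 36.6 CPM for B cells, 45.2 to 91.9 for T and NK cells, 55.1 to 79.0 for erythroid cells and megakaryocytes, and 130 to 155 for macrophages. The T and NK sum was 77.0 CPM or more in all proNeu libraries and 54.4 or less in the others. No region was linked to Cd79a, Cd3e or C1qa. The part of such cells in the results below was not tested, and fewer cells of a type and less open chromatin per cell cannot be told apart in bulk samples. The proNeu2 libraries differed little more than counting noise (1.01 for the chi-square per degree of freedom where the summed count reached 80, p = 0.164, while the other 3 groups had 1.31 to 1.47) and were kept as 2 samples.

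Regions more open in proNeu1 than in cMoP included ones at Atp6v1a and Atp6v0a1 of the proton pump and at Lyz2, and regions less open included ones at Lgmn, Mitf, Lamp1 and Psap. In that comparison 20 genes had a higher region and 15 a lower one, and several had both. Among the latter were Hexa, Scarb2, Gpnmb, Npc2, Grn, Tfeb, Atp6v0d2 and Lyz1. Of the 147 regions, 60 at 26 genes passed the test in at least 1 of 4 comparisons. Of the 147, 126 passed the filter on low counts, and 66 of those passed in no comparison. The test was edgeR's quasi-likelihood test, fitted on all 47506 regions that passed the filter, with p-values adjusted over all of them and calls made under 0.05. Changes in this and the following paragraphs are log2 fold changes. In GMP-MoP against cMoP, 3 member regions were higher and 6 lower (7.14% of 126, against 5.46% of all tested regions, 1.97% higher and 3.49% lower), with a median log2 fold change of -0.09 against -0.02 for all. In GMP-MoP against proNeu1, 10 were higher and 20 lower (23.8%, against 24.1%, 11.6% higher and 12.4% lower), with medians of -0.11 and 0.01. In proNeu2 against proNeu1, 0 were higher and 1 was lower (0.794%, against 0.0758%, 0.00842% higher and 0.0674% lower), and 8 of 126 had an unadjusted p under 0.05; DESeq2 called 0. In proNeu1 against cMoP, 27 were higher and 31 lower (46.0%, against 42.4%, 20.5% higher and 21.9% lower), with medians of 0.04 and 0.02. Scaling to total counts instead gave 3 higher and 3 lower members in GMP-MoP against cMoP, and 13 higher and 15 lower in GMP-MoP against proNeu1. Shares called were near those of all regions in GMP-MoP against cMoP, GMP-MoP against proNeu1 and proNeu1 against cMoP. That is no result about the members. The comparisons share libraries: cMoP enters 2 of them and proNeu1 enters 3. With DESeq2 in place of edgeR the member calls fell to 0, 4, 0 and 23 in the same order of comparisons, against 0.0779, 4.49, 0.00210 and 19.5% of all regions called. Of the 69 edgeR calls at the member regions named below, 22 were also made with DESeq2. Losses with DESeq2 are mostly not listed call by call.

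**Figure D1:**
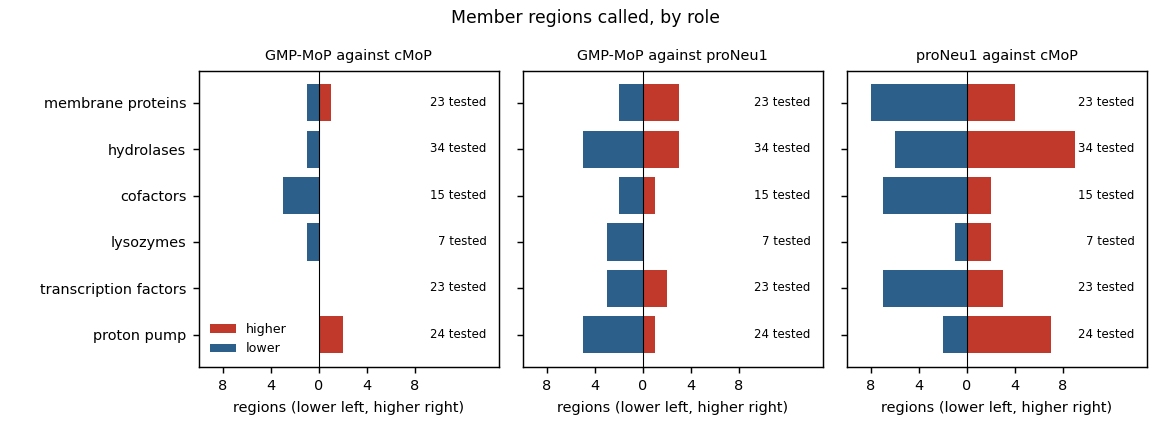
Member regions called higher (right of 0) or lower (left of 0) by role, in GMP-MoP against cMoP, GMP-MoP against proNeu1 and proNeu1 against cMoP. The number of regions tested stands at the right, and calls in both directions occurred in each of the 6 roles in proNeu1 against cMoP. Over all tested regions, in the same order of comparisons, 1.97, 11.6 and 20.5% were higher and 3.49, 12.4 and 21.9% lower.

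Of the 3 member regions higher in GMP-MoP than in cMoP, 2 lay at proton pump genes, where 24 regions were tested and 0 were lower. Against proNeu1, GMP-MoP had 1 pump region higher and 5 lower, and proNeu1 against cMoP had 7 higher at 4 genes and 2 lower at 1 gene. The lower ones all lay at Atp6v0d2, which also had 1 of the higher ones. In that comparison 29.2% of pump regions were higher and 8.33% lower, beside 20.5 and 21.9% of all tested regions. In GMP-MoP against proNeu1 the pump shares were 4.17 and 20.8%, beside 11.6 and 12.4%. In GMP-MoP against cMoP they were 8.33 and 0%, beside 1.97 and 3.49%. Summed over all 28 pump regions, levels were 419 and 389 CPM in GMP-MoP, 493 and 499 in proNeu2, 487 and 441 in proNeu1, and 367 and 373 in cMoP.

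Atp6v0a1 encodes a large membrane subunit of V0. Its start-site region (chr11:101007992-101009983) had 39.9 and 34.4 CPM in GMP-MoP, 60.9 and 61.3 in proNeu2, 64.1 and 67.9 in proNeu1, and 33.2 and 33.5 in cMoP. Both proNeu groups lay above GMP-MoP and cMoP with no overlap. The log2 fold change was -0.84 (SE 0.19, adjusted p = 0.000266) in GMP-MoP against proNeu1 and 0.98 (SE 0.19, adjusted p = 2.62e-06) in proNeu1 against cMoP. A region in the gene body, 42.8 kb after the start (chr11:101052789-101053634), had 2.80 and 0.545 CPM in GMP-MoP, 11.7 and 12.1 in proNeu2, 12.3 and 11.1 in proNeu1, and 1.04 and 1.02 in cMoP. The split was the same and wider, at -2.87 (SE 0.58, adjusted p = 4.03e-05) in GMP-MoP against proNeu1 and 3.42 (SE 0.59, adjusted p = 3.46e-07) in proNeu1 against cMoP. All 4 of these calls stood in every alternative tried.

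Atp6v1a encodes the catalytic subunit of V1, where ATP is split. The open region over the Atp6v1a promoter was linked to the gene Naa50, so it is not among the Atp6v1a regions or summed counts. Likewise, the regions over the Glb1 and Hexa promoters were linked to Tmppe and Tmem202. The leading Atp6v1a region, meaning the one with the most counts among those linked to the gene, lay in the gene body. Its place was 35.0 kb from the start (chr16:44103724-44104890). It had 9.09 and 12.0 CPM in GMP-MoP, 21.7 and 35.8 in proNeu2, 29.3 and 16.3 in proNeu1, and 3.11 and 1.52 in cMoP. The groups did not overlap between cMoP, GMP-MoP and the 2 proNeu groups, in that rising order. GMP-MoP against cMoP came to 2.18 (SE 0.49, adjusted p = 0.00147), GMP-MoP against proNeu1 to -1.08 (SE 0.32, adjusted p = 0.00618) and proNeu1 against cMoP to 3.26 (SE 0.42, adjusted p = 1.04e-11). The last held in every alternative. The first was lost without cMoP replicate 2 (adjusted p = 0.0750) or GMP-MoP replicate 2 (0.0703), and the second without proNeu1 replicate 1 (0.330).

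Atp6v0d2 encodes a d subunit of V0 known from osteoclasts and macrophages, and its regions went in opposite directions. A region inside the gene (chr4:19913676-19914886) had 2.80 and 5.45 CPM in GMP-MoP, 20.5 and 16.6 in proNeu2, 20.5 and 7.83 in proNeu1, and 0 and 0 in cMoP. No read was counted there in either cMoP library, and all other libraries had some. Against a floor of 3 counts over the cMoP group, it was at least 5.57-fold higher in GMP-MoP (adjusted p = 0.00102) and at least 18.2-fold higher in proNeu1 (adjusted p = 3.43e-12). The GMP-MoP call was lost without GMP-MoP replicate 2 (adjusted p = 0.0603). GMP-MoP was lower than proNeu1 there, at -1.69 (SE 0.44, adjusted p = 0.00181), a call lost without proNeu1 replicate 1 (adjusted p = 0.349).

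A region 19.6 kb outside Atp6v0d2 (chr4:19942140-19942775) had 6.29 and 4.91 CPM in GMP-MoP, 0.585 and 2.56 in proNeu2, 0 and 1.96 in proNeu1, and 7.77 and 14.2 in cMoP. Here cMoP was highest, GMP-MoP lay below it and the proNeu libraries were lowest. With 3 counts in proNeu1 against 43 in cMoP, proNeu1 was lower by a ratio of 11.0 (95% counting interval 3.53 to 55.6; adjusted p = 5.93e-06). GMP-MoP against proNeu1 gave 18 against 3 counts, a ratio of 5.51 (1.61 to 29.2; adjusted p = 0.0168), lost without proNeu1 replicate 1 (0.230) or GMP-MoP replicate 1 (0.0679). The intervals cover counting error only, since PCR copies are not independent molecules. The leading region of the gene (chr4:19894321-19896226) had 57.3 and 55.6 CPM in GMP-MoP, 38.6 and 39.6 in proNeu2, 45.0 and 36.6 in proNeu1, and 59.1 and 58.9 in cMoP. It was lower in proNeu1 than in cMoP, at -0.53 (SE 0.18, adjusted p = 0.0123), and this was lost without cMoP replicate 2 (adjusted p = 0.0567) or proNeu1 replicate 2 (0.239).

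Atp6v0d1, the widely expressed d subunit, had 56.6 and 46.9 CPM in GMP-MoP, 76.1 and 72.8 in proNeu2, 76.3 and 74.4 in proNeu1, and 50.3 and 42.7 in cMoP at its start site (chr8:105564651-105566766), the promoter printed above. Both proNeu groups again lay above GMP-MoP and cMoP. The change was 0.70 (SE 0.17, adjusted p = 0.000302) in proNeu1 against cMoP, past the test in all alternatives but loess offsets (adjusted p = 0.0583). In GMP-MoP against proNeu1 it was -0.55 (SE 0.17, adjusted p = 0.0105), lost without GMP-MoP replicate 2 (0.196) or proNeu1 replicate 1 (0.0624). With loess offsets it was -0.25 and not called (0.273).

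The leading regions of the other 3 pump genes passed no test. Atp6ap1, an accessory subunit, had 35.0 and 24.5 CPM in GMP-MoP, 36.9 and 35.8 in proNeu2, 32.0 and 24.8 in proNeu1, and 30.1 and 31.5 in cMoP at its start site. Atp6v1b2, a B subunit of V1, had 44.05 and 41.4 CPM in GMP-MoP, 66.7 and 61.3 in proNeu2, 55.9 and 45.7 in proNeu1, and 42.5 and 35.1 in cMoP. Atp6v1h, a regulatory subunit, had 35.0 and 34.9 CPM in GMP-MoP, 31.6 and 24.9 in proNeu2, 31.4 and 24.8 in proNeu1, and 24.4 and 24.4 in cMoP. The proNeu libraries were above all others at Atp6v1b2, and the groups overlapped at Atp6ap1. In proNeu1 against cMoP the changes were -0.12 (SE 0.23, adjusted p = 0.704) at Atp6ap1, 0.39 (SE 0.19, adjusted p = 0.0884) at Atp6v1b2 and 0.20 (SE 0.24, adjusted p = 0.518) at Atp6v1h.

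**Figure D2:**
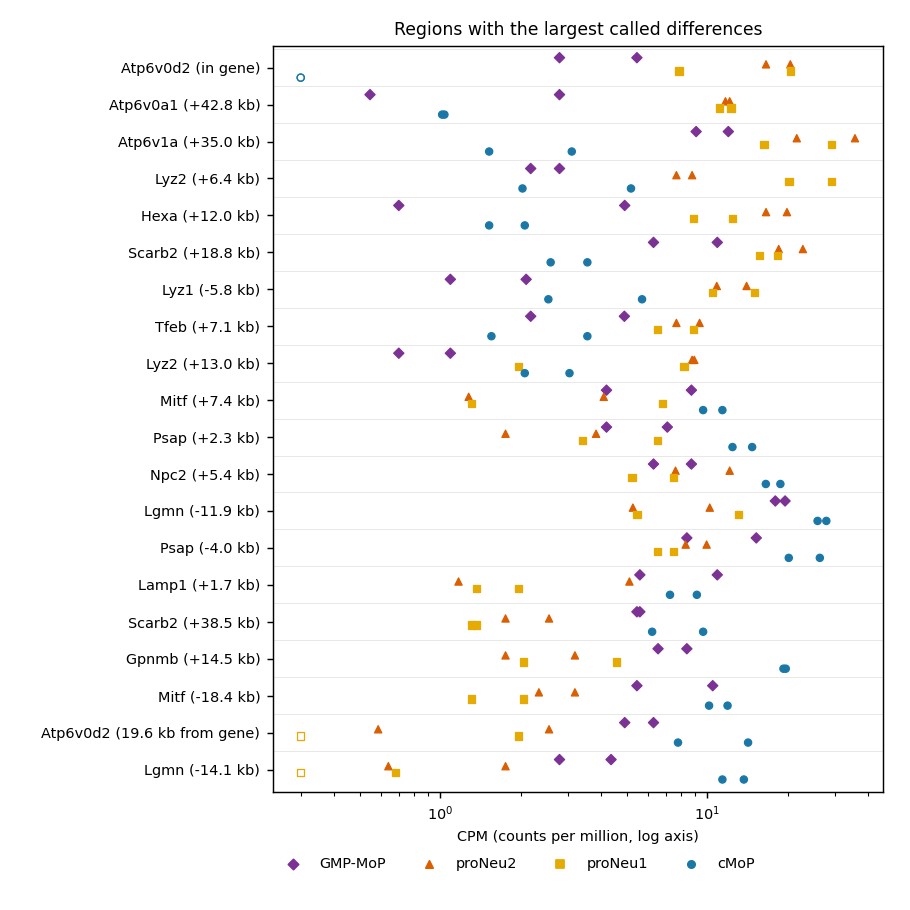
CPM on a log axis of the 20 member regions with the largest called log2 fold changes, ordered by proNeu1 against cMoP, with 1 point per library. Brackets give the distance of the region's centre from the start site, or from the gene where no start site was in the table, and open symbols at the left edge are libraries with 0 counts. The upper rows have proNeu2 and proNeu1 on the right and cMoP on the left, and the lower rows have cMoP on the right.

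The lysozymes, which split the cell wall of bacteria, held the region with the most negative log2 fold change among member calls in GMP-MoP against proNeu1 and the 1 member region that differed between the proNeu groups. In GMP-MoP against proNeu1, 3 of 7 tested lysozyme regions were lower and 0 higher (42.9 and 0%, beside 12.4 and 11.6% of all tested regions). In proNeu1 against cMoP 2 were higher and 1 lower (28.6 and 14.3%, beside 20.5 and 21.9%). Lyz1 and Lyz2 are adjacent and near-identical copies, so reads could have been placed at either, and values inside the genes are uncertain; no source at hand says how the authors treated such reads.

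The region 1181 bp beyond the far end of Lyz2, 6.4 kb after its start (chr10:117275403-117276360), had 2.80 and 2.18 CPM in GMP-MoP, 8.78 and 7.67 in proNeu2, 29.3 and 20.2 in proNeu1, and 5.18 and 2.03 in cMoP. Both proNeu1 libraries lay above all others, and proNeu2 lay between them and the GMP-MoP and cMoP libraries. GMP-MoP against proNeu1 came to -3.29 (SE 0.44, adjusted p = 3.37e-10), and proNeu1 against cMoP to 2.76 (SE 0.38, adjusted p = 1.89e-10), and both stood in every alternative. For proNeu2 against proNeu1 it was -1.57 (SE 0.33, adjusted p = 0.0179). That call was lost without proNeu1 replicate 1 (adjusted p = 0.435), proNeu2 replicate 1 (0.239) or proNeu2 replicate 2 (0.260). The other Lyz2 region with a call, 7928 bp from the gene (chr10:117268964-117269613), had 0.699 and 1.09 CPM in GMP-MoP, 8.78 and 8.95 in proNeu2, 8.18 and 1.96 in proNeu1, and 2.07 and 3.05 in cMoP. GMP-MoP held 3 counts there against 15 in proNeu1, lower by a ratio of 5.44 (1.54 to 29.3; adjusted p = 0.0254), with 1 proNeu1 library below both cMoP libraries. The call was lost without proNeu1 replicate 1 (0.631), GMP-MoP replicate 1 (0.0920) or GMP-MoP replicate 2 (0.118).

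At the Lyz2 start site (chr10:117281833-117282746), whose promoter is printed above, the libraries had 16.1 and 15.8 CPM in GMP-MoP, 19.9 and 23.0 in proNeu2, 23.9 and 22.8 in proNeu1, and 14.5 and 17.3 in cMoP. The proNeu libraries were all above the others, yet proNeu1 against cMoP at 0.55 (SE 0.27, adjusted p = 0.0892) and GMP-MoP against proNeu1 at -0.55 (SE 0.28, adjusted p = 0.143) did not pass. Upstream of Lyz1, 5.8 kb before its start (chr10:117298222-117299026), a region had 2.10 and 1.09 CPM in GMP-MoP, 14.05 and 10.9 in proNeu2, 15 and 10.4 in proNeu1, and 5.70 and 2.54 in cMoP. Both proNeu groups were above cMoP and GMP-MoP. Its change was -2.99 (SE 0.56, adjusted p = 1.16e-05) in GMP-MoP against proNeu1, in every alternative. In proNeu1 against cMoP it was 1.61 (SE 0.43, adjusted p = 0.00109), lost without cMoP replicate 2 (adjusted p = 0.0588) or with DESeq2 (0.0747). The leading Lyz1 region lies 7.7 kb after that start, between the genes (chr10:117284622-117285642). It was linked to Lyz1, 2153 bp away, but lies only slightly farther from the Lyz2 start, on its upstream side. The Lyz2 sum given below therefore leaves this region out. It went the other way, with 17.5 and 25.1 CPM in GMP-MoP, 22.2 and 18.5 in proNeu2, 30.7 and 16.3 in proNeu1, and 37.3 and 33.5 in cMoP. The cMoP libraries were highest, with -0.71 (SE 0.23, adjusted p = 0.0464) in GMP-MoP against cMoP and -0.60 (SE 0.23, adjusted p = 0.0276) in proNeu1 against cMoP. Each of these weak calls was lost on leaving out single libraries, the first with any of the 8 (adjusted p up to 0.385) and the second with 3 of them (up to 0.677, without proNeu1 replicate 2). With no filter on low counts neither passed (0.0749 and 0.0540), and the first was also lost with total counts (0.0675).

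**Figure D3:**
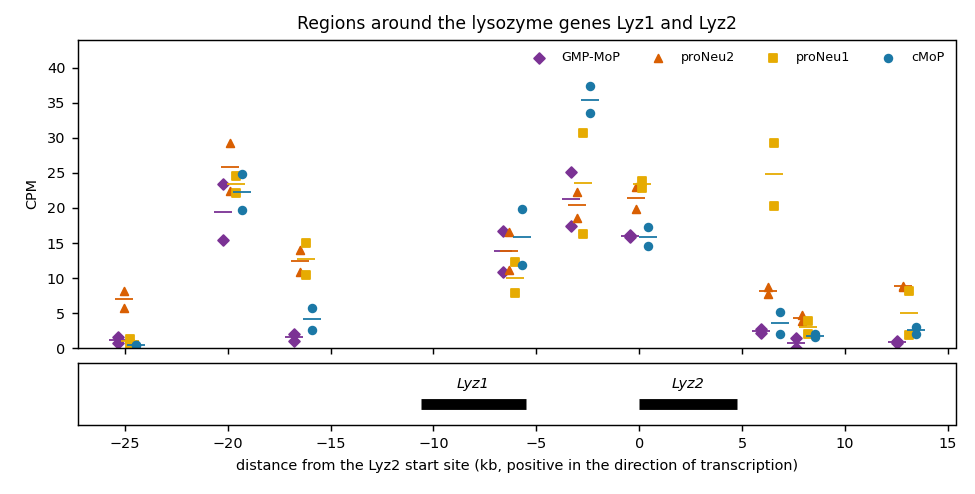
CPM of the 9 lysozyme regions against the distance of their centres from the Lyz2 start site in kb, positive along transcription, with 1 point per library, a dash at the group mean, groups shifted sideways for sight, and the 2 gene bodies below. The proNeu1 libraries stand apart at 6.4 kb, at 29.3 and 20.2 CPM, and the cMoP libraries are highest between the genes.

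The 7 genes of lysosomal membrane proteins had more regions lower than higher in proNeu1 against cMoP, 8 against 4 of 23 tested. GMP-MoP had 1 higher and 1 lower against cMoP, and 3 higher and 2 lower against proNeu1. Summed over the 31 regions, the levels of all 8 libraries lay between 451 and 515 CPM.

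Scarb2, the receptor that carries glucocerebrosidase to lysosomes, had 2 body regions with opposite patterns beside a level start site. The region 18.8 kb after the start (chr5:92486399-92487407) had 6.29 and 10.9 CPM in GMP-MoP, 22.8 and 18.5 in proNeu2, 15.7 and 18.3 in proNeu1, and 2.59 and 3.56 in cMoP. The proNeu libraries were highest and the cMoP libraries lowest, with 2.44 (SE 0.42, adjusted p = 3.34e-07) in proNeu1 against cMoP in every alternative. GMP-MoP lay between, 1.50 (SE 0.48, adjusted p = 0.0411) against cMoP and -0.93 (SE 0.35, adjusted p = 0.0377) against proNeu1. Both of these were lost without single libraries: the first without cMoP replicate 1 or 2 or GMP-MoP replicate 2 (adjusted p up to 0.485), the second without proNeu1 replicate 1 or 2 or GMP-MoP replicate 1 (up to 0.243). The second was also lost with total counts (0.0767), and both in fits of only the 2 groups compared. The region 38.5 kb after the start (chr5:92466674-92467618) had 5.59 and 5.45 CPM in GMP-MoP, 1.76 and 2.56 in proNeu2, 1.36 and 1.31 in proNeu1, and 6.22 and 9.65 in cMoP. There the proNeu libraries were lowest, -2.51 (SE 0.67, adjusted p = 0.00101) in proNeu1 against cMoP, lost without cMoP replicate 2 (adjusted p = 0.0528). GMP-MoP against proNeu1 was 1.99 (SE 0.75, adjusted p = 0.0373), lost without cMoP replicate 2 or any library of the pair (up to 0.151). Both calls at this region were lost with loess offsets (0.0528 and 0.148). At the Scarb2 start site the libraries had 72.7 and 60.0 CPM in GMP-MoP, 65.0 and 65.2 in proNeu2, 66.1 and 71.8 in proNeu1, and 64.8 and 59.4 in cMoP. No group stood apart there, and proNeu1 against cMoP was 0.15 (SE 0.16, adjusted p = 0.475).

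Gpnmb encodes a glycoprotein of melanosomes and macrophage lysosomes. A region in its body (chr6:49050627-49051437) had 8.39 and 6.54 CPM in GMP-MoP, 1.76 and 3.19 in proNeu2, 2.05 and 4.57 in proNeu1, and 19.7 and 19.3 in cMoP. The cMoP libraries were highest, GMP-MoP came next and the proNeu libraries were lowest. It changed by -2.52 (SE 0.42, adjusted p = 1.24e-07) in proNeu1 against cMoP, in every alternative, and by -1.40 (SE 0.34, adjusted p = 0.00394) in GMP-MoP against cMoP, which was lost without GMP-MoP replicate 2 (adjusted p = 0.125). Its leading region, 9.8 kb before the start, had 11.9 and 17.5 CPM in GMP-MoP, 22.2 and 19.8 in proNeu2, 17.7 and 22.8 in proNeu1, and 12.95 and 13.7 in cMoP. All proNeu libraries were above the others, by little over 1 GMP-MoP library. No comparison passed, with 0.61 (SE 0.29, adjusted p = 0.0826) in proNeu1 against cMoP.

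Lamp1, an abundant glycoprotein of the lysosomal membrane, had 22.4 and 15.8 CPM in GMP-MoP, 38.0 and 32.6 in proNeu2, 19.8 and 33.3 in proNeu1, and 21.2 and 16.8 in cMoP at its start site (chr8:13158644-13159862). The proNeu2 libraries were above GMP-MoP and cMoP, and proNeu1 overlapped with cMoP. No comparison passed there, with 0.49 (SE 0.25, adjusted p = 0.111) in proNeu1 against cMoP. A region 1.7 kb after the start (chr8:13160598-13161135) had 5.59 and 10.9 CPM in GMP-MoP, 1.17 and 5.11 in proNeu2, 1.36 and 1.96 in proNeu1, and 7.25 and 9.15 in cMoP. GMP-MoP and cMoP were high and proNeu1 was low, at 2.31 (SE 0.63, adjusted p = 0.00294) in GMP-MoP against proNeu1 and -2.25 (SE 0.62, adjusted p = 0.00137) in proNeu1 against cMoP. The first was lost without GMP-MoP replicate 2 (adjusted p = 0.203). With DESeq2 neither passed (0.126 and 0.0579).

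The leading region of Npc1, the membrane exporter of lysosomal cholesterol, had 51.0 and 49.6 CPM in GMP-MoP, 89.0 and 76.7 in proNeu2, 63.4 and 79.0 in proNeu1, and 52.9 and 51.8 in cMoP (chr18:12235858-12237447). All 4 proNeu libraries were above the others, with -0.50 (SE 0.17, adjusted p = 0.0232) in GMP-MoP against proNeu1 and 0.45 (SE 0.17, adjusted p = 0.0231) in proNeu1 against cMoP. Both calls were lost without single libraries (adjusted p up to 0.324 and 0.265, each without proNeu1 replicate 2), among them GMP-MoP replicate 2 for the first and either cMoP library for the second. With loess offsets the changes were -0.20 and 0.10 (adjusted p = 0.421 and 0.644), and with total counts neither passed (0.0745 and 0.0523). Mcoln1, a lysosomal calcium channel, had 28.0 and 28.4 CPM in GMP-MoP, 26.9 and 26.8 in proNeu2, 39.5 and 32.0 in proNeu1, and 30.6 and 18.8 in cMoP at its start site. In proNeu1 against cMoP the change was 0.53 (SE 0.23, adjusted p = 0.0448), with 1 library of each group close to the other, and it was lost without cMoP replicate 2 (adjusted p = 0.496) or proNeu1 replicate 1 (0.255), and with RLE factors, total counts or loess offsets (0.0713, 0.0894 and 0.171).

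The start-site regions of Lamp2 and Cd68 passed no test. Lamp2, the partner of Lamp1 in the lysosomal membrane, had 23.8 and 22.9 CPM in GMP-MoP, 38.6 and 33.9 in proNeu2, 40.9 and 26.1 in proNeu1, and 30.6 and 23.4 in cMoP. Cd68, a glycoprotein used as a macrophage marker, had 34.3 and 33.8 CPM in GMP-MoP, 38.0 and 43.4 in proNeu2, 30.7 and 37.9 in proNeu1, and 44.05 and 34.5 in cMoP. The groups overlapped at both genes, with 0.31 (SE 0.22, adjusted p = 0.272) at Lamp2 and -0.19 (SE 0.21, adjusted p = 0.471) at Cd68 in proNeu1 against cMoP.

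**Figure D4:**
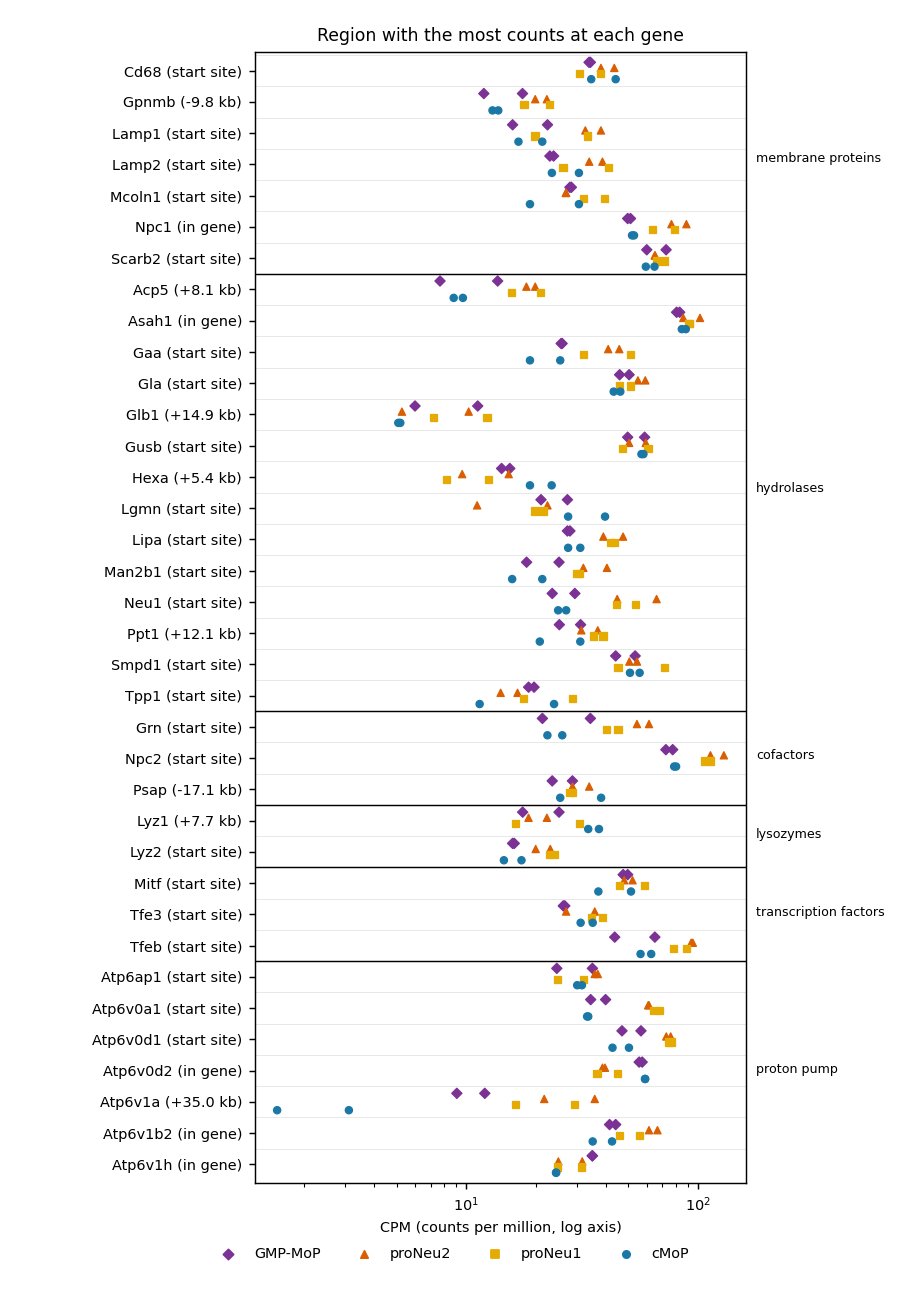
CPM on a log axis of the region with the most counts among those linked to each of the 36 genes, grouped by role. Each library has 1 point, and brackets are as in the plot of the largest differences. Levels of different genes are not comparable, since regions differ in width. The proNeu libraries lie above the others at genes that include Neu1, Lipa, Npc2, Grn, Tfeb, Atp6v0a1 and Atp6v0d1. These named regions are start sites. Of all 9430 tested start sites, 35.1% were higher and 7.45% lower in proNeu1 against cMoP. The widest split is at the Atp6v1a body region, since the region over that promoter was linked to another gene and is not shown.

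Among the 14 genes of acid hydrolases, proNeu1 against cMoP had 9 regions higher and 6 lower of 34 tested. These were 26.5 and 17.6%, beside 20.5 and 21.9% of all tested regions. GMP-MoP had 3 higher and 5 lower against proNeu1 (8.82 and 14.7%, beside 11.6 and 12.4%). Against cMoP it had 0 higher and 1 lower (0 and 2.94%, beside 1.97 and 3.49%). There 4 of 34 had an unadjusted p under 0.05. Summed over 37 regions, the levels were 632 and 654 CPM in GMP-MoP, 792 and 746 in proNeu2, 761 and 719 in proNeu1, and 675 and 700.1 in cMoP.

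Lgmn encodes legumain, an asparaginyl endopeptidase, and all its called regions were lower in proNeu1 than in cMoP. The region 14.1 kb before the start (chr12:102453498-102454191) had 2.80 and 4.36 CPM in GMP-MoP, 1.76 and 0.639 in proNeu2, 0.682 and 0 in proNeu1, and 11.4 and 13.7 in cMoP. The cMoP libraries were highest, GMP-MoP came next and the proNeu libraries held 3 counts or fewer each. With 1 count in proNeu1 against 49 in cMoP, proNeu1 was lower by a ratio of 37.7 (6.46 to 1519; adjusted p = 2.77e-08). GMP-MoP had 12 counts, higher than proNeu1 by a ratio of 11.0 (1.63 to 471; adjusted p = 0.0193) and lower than cMoP at -1.76 (SE 0.47, adjusted p = 0.00876). Of these calls the first stood in every alternative. The second was lost without proNeu1 replicate 2 (0.187) or GMP-MoP replicate 2 (0.182), or under loess offsets (0.0530), and the third without any library of the pair (up to 0.221).

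A second Lgmn region, 11.9 kb before the start (chr12:102451045-102452137), had 19.6 and 18 CPM in GMP-MoP, 5.27 and 10.2 in proNeu2, 5.45 and 13.1 in proNeu1, and 25.9 and 27.9 in cMoP. GMP-MoP and cMoP were above all proNeu libraries. The region was lower in proNeu1 than in cMoP in every alternative, at -1.52 (SE 0.31, adjusted p = 1.06e-05). GMP-MoP was higher than proNeu1 at 1.00 (SE 0.34, adjusted p = 0.0202), lost without proNeu1 replicate 1 or either GMP-MoP library (adjusted p up to 0.392). The Lgmn start site had 21.0 and 27.3 CPM in GMP-MoP, 11.1 and 22.4 in proNeu2, 19.8 and 21.5 in proNeu1, and 27.5 and 39.6 in cMoP. All proNeu libraries were below both cMoP libraries, with -0.70 (SE 0.24, adjusted p = 0.0127) in proNeu1 against cMoP. It was the only start site of the 29 tested that was called lower in that comparison, and it was not called without cMoP replicate 2 or either proNeu1 library (up to 0.346).

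Hexa, the alpha subunit of hexosaminidase A, had a body region 12.0 kb after its start (chr9:59550891-59552153) with 0.699 and 4.91 CPM in GMP-MoP, 19.9 and 16.6 in proNeu2, 8.86 and 12.4 in proNeu1, and 2.07 and 1.52 in cMoP. All proNeu libraries were above the others, with 2.52 (SE 0.54, adjusted p = 3.44e-05) in proNeu1 against cMoP, in every alternative. GMP-MoP against proNeu1 was -1.78 (SE 0.50, adjusted p = 0.00435), lost without proNeu1 replicate 2 (adjusted p = 0.0894) or GMP-MoP replicate 1 (0.123). The leading Hexa region, 5.4 kb after the start (chr9:59544456-59545390), had 15.4 and 14.2 CPM in GMP-MoP, 15.2 and 9.58 in proNeu2, 8.18 and 12.4 in proNeu1, and 23.3 and 18.8 in cMoP. Here cMoP was above all other libraries, and proNeu1 against cMoP was -1.02 (SE 0.31, adjusted p = 0.00455), lost without cMoP replicate 1 (0.0615) or proNeu1 replicate 1 (0.129).

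Neu1 encodes the lysosomal sialidase. Its start site (chr17:34930826-34931810) had 29.4 and 23.5 CPM in GMP-MoP, 66.1 and 44.7 in proNeu2, 44.3 and 53.5 in proNeu1, and 24.9 and 26.9 in cMoP. All proNeu libraries were above all GMP-MoP and cMoP libraries, and the promoter printed above held no match to the motifs. The change was -0.91 (SE 0.22, adjusted p = 0.000643) in GMP-MoP against proNeu1, lost without GMP-MoP replicate 2 (adjusted p = 0.0546) or with DESeq2 (0.0758). In proNeu1 against cMoP it was 0.92 (SE 0.21, adjusted p = 0.000106), in every alternative.

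Gaa, the acid alpha-glucosidase that breaks down glycogen, had 25.9 and 25.6 CPM in GMP-MoP, 45.7 and 40.9 in proNeu2, 51.1 and 32.0 in proNeu1, and 25.4 and 18.8 in cMoP at its start site (chr11:119267414-119268514), whose promoter holds 1 E-box. Again the proNeu libraries were above the others. The changes were -0.68 (SE 0.23, adjusted p = 0.0160) in GMP-MoP against proNeu1 and 0.91 (SE 0.22, adjusted p = 0.000369) in proNeu1 against cMoP. Without proNeu1 replicate 1 neither was called (adjusted p = 0.492 and 0.109), and the first was also lost without GMP-MoP replicate 2 (0.113) or with loess offsets (0.0981).

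The start site of Lipa, the lysosomal acid lipase, had 28.0 and 27.3 CPM in GMP-MoP, 47.4 and 39.0 in proNeu2, 43.6 and 41.8 in proNeu1, and 27.5 and 31.0 in cMoP. All proNeu libraries lay above the others, at -0.63 (SE 0.22, adjusted p = 0.0233) in GMP-MoP against proNeu1 and 0.54 (SE 0.21, adjusted p = 0.0253) in proNeu1 against cMoP. The first was lost without any library of the pair (adjusted p up to 0.149), the second without cMoP replicate 1 or either proNeu1 library (up to 0.141). Neither passed with total counts (0.0667 and 0.0546) or loess offsets (0.159 and 0.213).

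Leading regions of 3 more hydrolase genes were called higher in proNeu1 than in cMoP. At Man2b1, a lysosomal alpha-mannosidase, the start site had 18.2 and 25.1 CPM in GMP-MoP, 40.4 and 31.9 in proNeu2, 30.0 and 30.7 in proNeu1, and 21.2 and 15.8 in cMoP. Its change of 0.71 (SE 0.25, adjusted p = 0.0128) was lost without cMoP replicate 2 (adjusted p = 0.148) or proNeu1 replicate 2 (0.0503). Acp5, the tartrate-resistant acid phosphatase of osteoclasts and macrophages, had 7.69 and 13.6 CPM in GMP-MoP, 18.1 and 19.8 in proNeu2, 15.7 and 20.9 in proNeu1, and 8.81 and 9.65 in cMoP at a region 8.1 kb beyond its start. Its change of 0.98 (SE 0.33, adjusted p = 0.00903) was lost without cMoP replicate 1 (0.0560) or proNeu1 replicate 2 (0.135). Ppt1, which removes palmitate from proteins, had 25.2 and 31.1 CPM in GMP-MoP, 36.9 and 31.3 in proNeu2, 38.9 and 35.3 in proNeu1, and 20.7 and 31.0 in cMoP at a body region. That change of 0.51 (SE 0.22, adjusted p = 0.0488) was lost without cMoP replicate 1 or either proNeu1 library (up to 0.466), and with RLE factors, total counts or loess offsets (0.0782, 0.0988 and 0.233). At all 3 genes the proNeu libraries were above both cMoP libraries, narrowly at Ppt1.

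The leading regions of the 6 other hydrolase genes passed no test. Asah1, the acid ceramidase, had 83.2 and 80.7 CPM in GMP-MoP, 102 and 86.3 in proNeu2, 91.3 and 92.0 in proNeu1, and 85.0 and 88.4 in cMoP. At Gla, the alpha-galactosidase A, the start site had 50.3 and 45.8 CPM in GMP-MoP, 59.1 and 54.9 in proNeu2, 51.1 and 45.7 in proNeu1, and 46.1 and 43.2 in cMoP. At Glb1, the beta-galactosidase, a body region had 11.2 and 6.0 CPM in GMP-MoP, 5.27 and 10.2 in proNeu2, 12.3 and 7.18 in proNeu1, and 5.18 and 5.08 in cMoP. In these 3 the groups overlapped or lay close. At Glb1 the cMoP libraries were lowest, but only just below 1 proNeu2 library at 5.27 CPM. Gusb, the beta-glucuronidase, had 58.7 and 49.6 CPM in GMP-MoP, 50.3 and 59.4 in proNeu2, 60.7 and 47.0 in proNeu1, and 58.0 and 56.9 in cMoP at its start site. Smpd1, the acid sphingomyelinase, had 44.05 and 53.4 CPM in GMP-MoP, 54.4 and 50.5 in proNeu2, 71.6 and 45.0 in proNeu1, and 50.8 and 55.9 in cMoP at its own. Tpp1, the tripeptidyl peptidase, had 19.6 and 18.5 CPM in GMP-MoP, 14.05 and 16.6 in proNeu2, 28.6 and 17.6 in proNeu1, and 11.4 and 23.9 in cMoP. The changes in proNeu1 against cMoP ran from -0.10 at Gusb to 0.91 at Glb1, with adjusted p from 0.0844 at Glb1 to 0.689 at Asah1.

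The 3 genes of soluble cofactors and transfer proteins had 2 regions higher and 7 lower of 15 tested in proNeu1 against cMoP. These were 13.3 and 46.7%, beside 20.5 and 21.9% of all tested regions. GMP-MoP had 0 higher and 3 lower against cMoP (0 and 20%, beside 1.97 and 3.49%). There 4 of 15 had an unadjusted p under 0.05. Against proNeu1 it had 1 higher and 2 lower (6.67 and 13.3%, beside 11.6 and 12.4%). The 2 higher regions in proNeu1 were the start sites of Grn and Npc2.

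Psap encodes prosaposin, the source of the saposins that help enzymes to reach lipids. Its region 4.0 kb before the first of its 2 start sites (chr10:60273177-60274167) had 8.39 and 15.3 CPM in GMP-MoP, 9.95 and 8.31 in proNeu2, 7.5 and 6.53 in proNeu1, and 20.2 and 26.4 in cMoP. Both cMoP libraries were above all others. The change was -1.73 (SE 0.34, adjusted p = 6.30e-06) in proNeu1 against cMoP, in every alternative, and -0.93 (SE 0.29, adjusted p = 0.0334) in GMP-MoP against cMoP. A body region 2.3 kb after the second start site (chr10:60286304-60287124) had 4.19 and 7.09 CPM in GMP-MoP, 1.76 and 3.83 in proNeu2, 3.41 and 6.53 in proNeu1, and 12.4 and 14.7 in cMoP, with cMoP again above the rest. It gave -1.43 (SE 0.42, adjusted p = 0.00274) in proNeu1 against cMoP, lost without proNeu1 replicate 1 (adjusted p = 0.103), and -1.22 (SE 0.39, adjusted p = 0.0423) in GMP-MoP against cMoP. The GMP-MoP call at the first region was lost without cMoP replicate 2, GMP-MoP replicate 1 or either proNeu2 library (up to 0.391), and the one at the second without any library but proNeu1 replicate 2 (up to 0.316). Both were also lost with total counts (0.0502 and 0.0575), loess offsets (0.0538 and 0.0665), no filter on low counts or only the 2 groups compared. The leading Psap region, 17.1 kb before the first start site, had 28.7 and 23.5 CPM in GMP-MoP, 28.7 and 33.9 in proNeu2, 27.9 and 28.7 in proNeu1, and 25.4 and 38.1 in cMoP. There the groups overlapped and no comparison passed.

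Npc2 encodes the soluble partner of Npc1 in cholesterol export. Its start site (chr12:84772484-84773749) had 77.6 and 72.5 CPM in GMP-MoP, 113 and 129 in proNeu2, 107 and 113 in proNeu1, and 78.8 and 80.3 in cMoP, with the proNeu libraries above the others. The changes were -0.56 (SE 0.15, adjusted p = 0.00284) in GMP-MoP against proNeu1 and 0.47 (SE 0.14, adjusted p = 0.00485) in proNeu1 against cMoP. Both calls held without each library but not with loess offsets (adjusted p = 0.244 and 0.690) or DESeq2 (0.0825 and 0.0954). A body region 5.4 kb after the start (chr12:84767322-84768185) ran the other way, with 6.29 and 8.73 CPM in GMP-MoP, 7.61 and 12.1 in proNeu2, 7.5 and 5.22 in proNeu1, and 16.6 and 18.8 in cMoP. Both cMoP libraries were highest, at -1.47 (SE 0.37, adjusted p = 0.000455) in proNeu1 against cMoP in every alternative. GMP-MoP against cMoP was -1.20 (SE 0.34, adjusted p = 0.0172), lost without cMoP replicate 2 or either GMP-MoP library (up to 0.183).

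Grn encodes progranulin. Its start site (chr11:102429945-102431467), where the promoter holds 2 PU.1 cores, had 34.3 and 21.3 CPM in GMP-MoP, 54.4 and 61.3 in proNeu2, 40.2 and 45.0 in proNeu1, and 25.9 and 22.4 in cMoP. No library of the other groups reached the proNeu values. Against cMoP proNeu1 gave 0.82 (SE 0.22, adjusted p = 0.000919), which held without each library but not with DESeq2 (adjusted p = 0.0582). GMP-MoP against proNeu1 gave -0.65 (SE 0.22, adjusted p = 0.0191), lost without proNeu1 replicate 2 (adjusted p = 0.148) or GMP-MoP replicate 2 (0.485). The second was also lost with total counts (0.0546) or loess offsets (0.144). The other region linked to Grn, in the gene body, went the other way and was called lower in proNeu1 than in cMoP.

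The 3 transcription factor genes had 27 regions, with 3 higher and 7 lower of 23 tested in proNeu1 against cMoP. The 3 higher ones lay at Tfeb, and of the 7 lower ones 5 lay at Mitf and 2 at Tfeb. GMP-MoP had 2 higher, both at Mitf, and 3 lower against proNeu1, and 0 called against cMoP, where 1 of 23 had an unadjusted p under 0.05 and DESeq2 called 0 members. The Mitf region 18.4 kb before the start (chr6:97788250-97789158) had 10.5 and 5.45 CPM in GMP-MoP, 2.34 and 3.19 in proNeu2, 2.05 and 1.31 in proNeu1, and 11.9 and 10.2 in cMoP. GMP-MoP and cMoP were above all proNeu libraries, with 2.16 (SE 0.63, adjusted p = 0.00606) in GMP-MoP against proNeu1 and -2.67 (SE 0.56, adjusted p = 2.90e-05) in proNeu1 against cMoP. The second held in every alternative and the first was lost without proNeu1 replicate 2 (adjusted p = 0.0863) or GMP-MoP replicate 1 (0.123). A Mitf body region 7.4 kb after the start (chr6:97814037-97814831) had 4.19 and 8.73 CPM in GMP-MoP, 4.10 and 1.28 in proNeu2, 6.82 and 1.31 in proNeu1, and 11.4 and 9.65 in cMoP. The cMoP libraries were above all others. It gave -1.38 (SE 0.47, adjusted p = 0.0113) in proNeu1 against cMoP, lost without cMoP replicate 1 (0.0679) or proNeu1 replicate 2 (0.413), and narrowly with loess offsets (0.0516). The leading Mitf region, at one of the gene's start sites, had 49.6 and 47.4 CPM in GMP-MoP, 52.1 and 47.9 in proNeu2, 58.6 and 45.7 in proNeu1, and 51.3 and 37.1 in cMoP. Its groups overlapped and it passed no test.

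The Tfeb start site (chr17:47736636-47738646) had 65.0 and 43.6 CPM in GMP-MoP, 94.8 and 93.3 in proNeu2, 89.3 and 78.3 in proNeu1, and 62.7 and 56.4 in cMoP. Values of the proNeu libraries exceeded the others, with -0.65 (SE 0.17, adjusted p = 0.00181) in GMP-MoP against proNeu1 and 0.49 (SE 0.16, adjusted p = 0.00783) in proNeu1 against cMoP. The first was lost without GMP-MoP replicate 2 (adjusted p = 0.229), the second without cMoP replicate 2 (0.0595) or proNeu1 replicate 1 (0.0765), and both with loess offsets (0.103 and 0.506). A body region 7.1 kb after the start (chr17:47744702-47745313) had 4.89 and 2.18 CPM in GMP-MoP, 9.36 and 7.67 in proNeu2, 8.86 and 6.53 in proNeu1, and 1.55 and 3.56 in cMoP. All proNeu libraries were above the others, with 1.55 (SE 0.55, adjusted p = 0.0156) in proNeu1 against cMoP, lost without cMoP replicate 1 (0.159) or proNeu1 replicate 1 (0.117). The leading region of Tfe3, at the first of its start sites, had 26.6 and 26.2 CPM in GMP-MoP, 26.9 and 35.8 in proNeu2, 34.8 and 38.5 in proNeu1, and 31.1 and 35.1 in cMoP. GMP-MoP was lowest there, and no comparison passed. A region at its second start site (chrX:7763678-7764490), chosen after its values were seen, had 6.99 and 8.73 CPM in GMP-MoP, 14.05 and 22.4 in proNeu2, 16.4 and 14.4 in proNeu1, and 12.95 and 14.2 in cMoP. GMP-MoP was lowest there too, at -0.94 (SE 0.37, adjusted p = 0.0451) against proNeu1. That call was lost without any library but cMoP replicate 1 (adjusted p up to 0.191, without proNeu1 replicate 1), with total counts (0.0877), with RLE factors (0.0524), in the fit of only the 2 groups (0.0798) and with DESeq2 (0.307).

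Of the member start sites with a call, most were higher in proNeu1 than in cMoP, as were those of all genes. Of the 125 member regions at genes with a RefSeq start in the table, 30 (24.0%) lay within 1 kb of a start site, 54 (43.2%) in the gene body and 41 (32.8%) outside the gene, against 23.2, 47.0 and 29.9% of all linked regions. In proNeu1 against cMoP, 10 of 29 tested member start sites were higher and 1 lower, with a median log2 fold change of 0.38. Over all 9430 tested start sites 35.1% were higher and 7.45% lower, with a median of 0.29, so the members were near the background. Member regions away from start sites had 15 higher and 26 lower of 79 tested. In gene bodies 20% of members were higher and 33.33% lower, against 17.56 and 25.94% of all tested regions in gene bodies. Outside genes the member shares were 17.65 and 32.35%, against 16.03 and 23.91%. Away from start sites all regions thus also had more lower than higher, and the difference from the members was not tested. In GMP-MoP against proNeu1, 0 member start sites were higher and 9 lower (median -0.46), against 3.84 and 25.9% of all start sites (median -0.26). In GMP-MoP against cMoP, 0 of 29 were called and 2 had an unadjusted p under 0.05, against 1.39% called of all start sites; DESeq2 called 0. The start-site calls depended on the scaling and on the test. With loess offsets they were 5 higher and 2 lower in proNeu1 against cMoP and 0 higher and 3 lower in GMP-MoP against proNeu1. DESeq2 called 4 higher and 0 lower in proNeu1 against cMoP and 0 higher and 1 lower in GMP-MoP against proNeu1. Without GMP-MoP replicate 2, the count in GMP-MoP against proNeu1 was 0 higher and 2 lower.

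**Figure D5:**
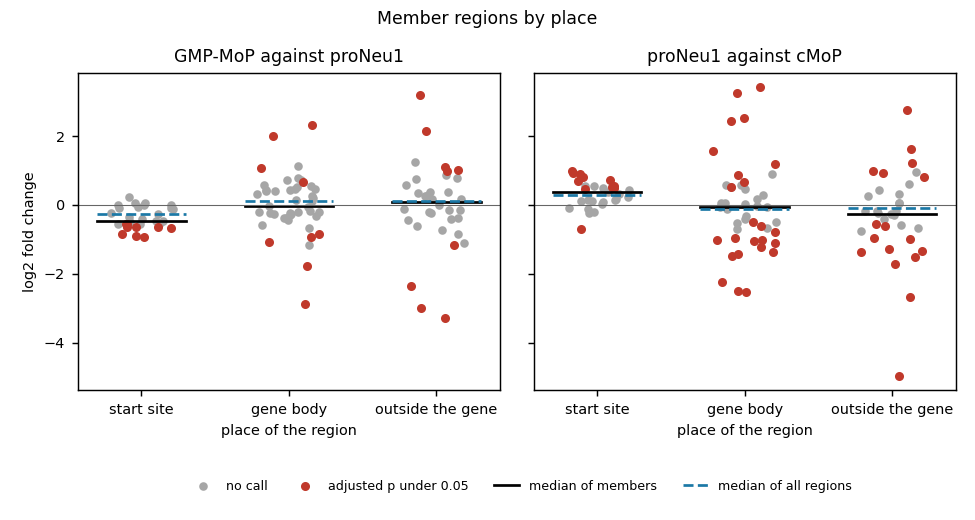
Log2 fold changes of the member regions by place, in GMP-MoP against proNeu1 and proNeu1 against cMoP, with called regions in red, the median of the members as a solid line and that of all tested regions of that place as a dashed line. Member medians at start sites lie at -0.46 and 0.38, beside -0.26 and 0.29 for all start sites.

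Of the 6 tested start-site regions at genes with an E-box match, 3 were higher (Atp6v0d1, Gaa and Mcoln1) and 1 lower (Lgmn) in proNeu1 against cMoP, with a median of 0.51. Of the 23 at genes whose promoters held none, 7 were higher and 0 lower, with a median of 0.31. In GMP-MoP against proNeu1, 2 of the 6 and 7 of the 23 were lower. The difference between genes with and without a match was not tested.

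Counts summed over all regions linked to a gene gave calls at 11 of the 36 genes. The fit over all 14839 such genes called 0 member genes higher and 1 lower in GMP-MoP against cMoP (background 3.41%, of which 2.49% lower), 3 higher and 3 lower in GMP-MoP against proNeu1 (28.5%), 0 in proNeu2 against proNeu1 (0.337%; 3 at an unadjusted p under 0.05, and DESeq2 called 0), and 6 higher and 5 lower in proNeu1 against cMoP (41.0%). The shares were 16.7% of the 36 in GMP-MoP against proNeu1 and 30.6% in proNeu1 against cMoP, both below the background. Here CPM are scaled to the counts in linked regions. Psap was the 1 gene called between GMP-MoP and cMoP, with 129.8 and 148 CPM in GMP-MoP, 133 and 126 in proNeu2, 115 and 120.3 in proNeu1, and 169.9 and 195 in cMoP. Both cMoP libraries were above the rest, and the change was -0.39 (SE 0.12, adjusted p = 0.0482). It was lost in 13 of 16 alternatives, among them every single library left out but cMoP replicate 1 (adjusted p up to 0.428, without cMoP replicate 2).

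Lyz2 had 22.9 and 21.8 CPM in GMP-MoP, 42.5 and 44.03 in proNeu2, 64.5 and 50.1 in proNeu1, and 25.7 and 28.0 in cMoP summed over its regions, at -1.35 (SE 0.21, adjusted p = 3.57e-06) in GMP-MoP against proNeu1 and 1.09 (SE 0.20, adjusted p = 1.27e-05) in proNeu1 against cMoP. The proNeu1 libraries were highest and the GMP-MoP and cMoP libraries lowest. This sum leaves out the region between Lyz1 and Lyz2, linked to Lyz1, where the cMoP libraries were highest. Neu1 and Atp6v0a1 were also lower in GMP-MoP than in proNeu1 (-0.86 and -0.57), while Lgmn, Mitf and Atp6v0d2 were higher (0.60, 0.42 and 0.38). Of these, Atp6v0a1 and Lgmn were lost without GMP-MoP replicate 2 (adjusted p = 0.0657 and 0.0844), and Atp6v0d2 without proNeu1 replicate 2 or any GMP-MoP or proNeu2 library (up to 0.429). With DESeq2 Atp6v0a1, Lgmn and Atp6v0d2 were not called (0.0507, 0.0801 and 0.211). Atp6v0d2 was also lost in the fit of only the 2 groups compared (0.0545) and with proNeu2 summed as 1 sample (0.0561). In proNeu1 against cMoP, the higher genes beside Lyz2 were Atp6v1a (1.32), Neu1 (0.87), Atp6v0a1 (0.86), Gaa (0.77) and Atp6v0d1 (0.44). The lower ones were Lgmn (-1.02), Mitf (-0.69), Psap (-0.63), Gpnmb (-0.57) and Atp6v0d2 (-0.48). Gaa was lost without proNeu1 replicate 1 (0.242) or cMoP replicate 2 (0.0787), and Gpnmb without proNeu1 replicate 1 (0.0631). Atp6v0d1 and Atp6v0d2 were lost without cMoP replicate 2 (0.128 and 0.211) or proNeu1 replicate 2 (0.0547 and 0.174). These 4 genes were not called with DESeq2 either. The other 7 genes were called in that comparison in every alternative. Mitf had 221 and 231 CPM in GMP-MoP, 143 and 141 in proNeu2, 168 and 169 in proNeu1, and 272 and 271 in cMoP, so that both proNeu groups lay below GMP-MoP and GMP-MoP below cMoP.

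Other genes of the lysosome, 74 genes in 5 lists, had 253 linked regions, of which 217 were tested. They gave 5 higher and 4 lower regions in GMP-MoP against cMoP (4.15%, background 5.46%), 20 higher and 35 lower in GMP-MoP against proNeu1 (25.3%, background 24.1%), 0 by edgeR in proNeu2 against proNeu1 (background 0.0758%; 19 at an unadjusted p under 0.05, and DESeq2 called 0), and 63 higher and 41 lower in proNeu1 against cMoP (47.9%, background 42.4%). The last comes to 29.0% higher and 18.9% lower, beside a background of 20.5 and 21.9%. By list, the 16 other pump subunit genes had 9 higher and 8 lower of 31 in that comparison, other hydrolases and cofactors 11 and 8 of 55, other membrane proteins and transporters 10 and 11 of 47, genes of nutrient sensing on the lysosome 16 and 8 of 46, and genes of enzyme sorting 17 and 6 of 38.

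For each of these lists the 2 called regions with the smallest adjusted p are given, and they went in both directions. Gga2, an adaptor that sorts cargo of mannose 6-phosphate receptors, had a body region with 30.8 and 38.2 CPM in GMP-MoP, 57.9 and 57.5 in proNeu2, 45.0 and 49.6 in proNeu1, and 5.70 and 9.65 in cMoP. Only cMoP was low there, at 2.17 (SE 0.28, adjusted p = 1.80e-09) in GMP-MoP against cMoP and 2.61 (SE 0.27, adjusted p = 3.75e-17) in proNeu1 against cMoP. Gnptab, which starts the mannose 6-phosphate tag, had a body region with 25.2 and 18 CPM in GMP-MoP, 4.68 and 3.83 in proNeu2, 3.41 and 4.57 in proNeu1, and 34.2 and 29.0 in cMoP. Both proNeu groups were low, at 2.38 (SE 0.40, adjusted p = 7.49e-07) in GMP-MoP against proNeu1 and -2.96 (SE 0.36, adjusted p = 4.05e-13) in proNeu1 against cMoP.

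The start site of Cd63, a tetraspanin of lysosomes and of neutrophil azurophil granules, had 44.05 and 28.9 CPM in GMP-MoP, 75.5 and 72.2 in proNeu2, 68.8 and 64.6 in proNeu1, and 21.2 and 16.3 in cMoP. The proNeu libraries were highest and cMoP lowest, with 1.83 (SE 0.21, adjusted p = 1.82e-14) in proNeu1 against cMoP. GMP-MoP against cMoP was 0.93 (SE 0.23, adjusted p = 0.00487), lost without cMoP replicate 2 (adjusted p = 0.123) or GMP-MoP replicate 1 (0.267). A region within the annotated gene, 8.7 kb before that start, had 12.6 and 6.54 CPM in GMP-MoP, 39.8 and 33.2 in proNeu2, 27.3 and 24.2 in proNeu1, and 4.66 and 5.08 in cMoP, and 2.38 (SE 0.34, adjusted p = 9.49e-10) in proNeu1 against cMoP. Among other pump subunits, a region 10836 bp from Atp6v1g3 had 14.7 and 18 CPM in GMP-MoP, 5.85 and 0.639 in proNeu2, 2.73 and 2.61 in proNeu1, and 28.0 and 35.1 in cMoP. GMP-MoP and cMoP were above all proNeu libraries, with 2.60 (SE 0.47, adjusted p = 4.42e-06) in GMP-MoP against proNeu1 and -3.53 (SE 0.40, adjusted p = 8.82e-15) in proNeu1 against cMoP. A body region of Atp6v0a4 had 25.9 and 24.5 CPM in GMP-MoP, 7.02 and 4.47 in proNeu2, 10.9 and 5.88 in proNeu1, and 33.2 and 35.6 in cMoP. Again GMP-MoP and cMoP were above all proNeu libraries, with 1.58 (SE 0.32, adjusted p = 5.63e-05) in GMP-MoP against proNeu1.

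Rptor, the scaffold of mTORC1, had a body region with 12.6 and 9.82 CPM in GMP-MoP, 30.4 and 30.7 in proNeu2, 32.0 and 30.7 in proNeu1, and 8.81 and 7.62 in cMoP. Lamtor4, a part of the Ragulator that holds mTORC1 on the lysosome, had 73.4 and 81.3 CPM in GMP-MoP, 140.5 and 136 in proNeu2, 149 and 125 in proNeu1, and 78.2 and 66.1 in cMoP at its start site. At both, all proNeu libraries were above the others, with 1.92 (SE 0.29, adjusted p = 5.66e-09) at Rptor and 0.92 (SE 0.14, adjusted p = 1.06e-08) at Lamtor4 in proNeu1 against cMoP. Arsb, the arylsulfatase B, had 4.19 and 2.73 CPM in GMP-MoP, 16.4 and 23.0 in proNeu2, 10.2 and 16.3 in proNeu1, and 1.55 and 0.508 in cMoP at a body region, again with the proNeu libraries above the others and 3.61 (SE 0.57, adjusted p = 2.33e-08) in proNeu1 against cMoP. Galns, which desulfates N-acetylgalactosamine residues, had 4.19 and 6.54 CPM in GMP-MoP, 0 and 1.92 in proNeu2, 0 and 0 in proNeu1, and 8.81 and 9.15 in cMoP at a region within the gene. No read was counted there in either proNeu1 library, and the region passed the test in GMP-MoP against proNeu1 (adjusted p = 0.000317) and in proNeu1 against cMoP (adjusted p = 4.94e-07).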

How the data were processed

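ATAC-seq libraries of 4 progenitor groups, 2 each, were analysed. The authors deposited, per library, raw counts in the same 61196 merged mm10 regions; the submitters' processing notes list edgeR 3.32.1, HOMER 4.11 and Bowtie2 2.3.5.1 without roles. No source at hand describes Tn5 shift, duplicate removal or region calling. Each region was linked to its nearest protein-coding gene (RefSeq, GRCm38.p6) within 50 kb, and 4 member regions were equally near to several genes. Counts were tested with edgeR 4.0.16 (R 4.3.3; quasi-likelihood, robust, TMM, filterByExpr at 10 counts, 1 mean per group over all 8 libraries, Benjamini-Hochberg over all regions). SE is the absolute log2 fold change over the square root of F. The script was tested on simulated data. Counts summed per gene were fitted likewise. Named are each gene's leading region, the 20 called member regions with the largest log2 fold change, and 2 regions per list of other lysosome genes. Alternatives were other scalings, DESeq2 1.42.0, no filter, 2-group fits, a replicate block, other links, single libraries left out and, chosen after seeing the data, proNeu2 summed as 1 sample. Intervals and floors cover counting error only. Members and lists were chosen with earlier results of these data known.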

Additional observations from a re-analysis of the deposited data

How the results depend on the processing

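Counts below are in the order GMP-MoP against cMoP, GMP-MoP against proNeu1, proNeu2 against proNeu1 and proNeu1 against cMoP. The report's 9, 30, 1 and 58 called member regions became 0, 4, 0 and 23 with DESeq2, which tested the same regions, and 0, 10, 0 and 15 when only regions within 1 kb of a gene end were kept, which leaves fewer regions. Fits of only the 2 groups compared gave 4 in the first comparison, with fewer libraries. Leaving out single libraries gave 1 to 8, 13 to 30, 0 to 1 and 39 to 59. The lowest count of the second comparison, 13, came without GMP-MoP replicate 2 and the next, 17, without proNeu1 replicate 1. The single call of the third was lost without proNeu1 replicate 1 or either proNeu2 library. RLE factors, total counts, loess offsets, no filter, the 10 kb link and proNeu2 summed as 1 sample kept every count within 1.5 times. For genes summed over regions, 1, 6, 0 and 11 calls became 0, 3, 0 and 7 with DESeq2, and the first also became 0 with total counts, loess offsets, no filter, only the 2 groups compared or proNeu2 summed. Without single libraries they were 0 to 2, 3 to 8, 0 to 0 and 8 to 13. Where not stated, the cause was not tested. Of the 69 calls at named regions, none reversed in any alternative, 22 were also made with DESeq2, 24 held without each single library, and 19 held in all alternatives.

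Pairing by replicate number was not evident: deviations of same-numbered libraries correlated at -0.0324 to 0.107 between groups, highest between GMP-MoP and cMoP. With 2 libraries a group and low counts per region, such values cannot exclude that same-numbered libraries share a mouse or a day. With the replicate number as a block, 9, 31, 1 and 58 member regions and 1, 7, 0 and 12 summed genes were called, and no named region lost its call. Depth limits what can be seen: the median member region held 14 to 25 counts per library.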
